A study of Drosophila melanogaster with 2 samples.

Results

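The genes studied here are those of chromosome 4 of the fruitfly Drosophila melanogaster, as listed in the mRNA table of adult flies. The table holds 17698 genes, of which 111 have a position on chromosome 4. Genes with symbols beginning with Rp, ATPsyn, ND- or mir- were left out, which removed 5 genes and kept 106. The choice used position and symbol alone, not the level of any gene. Of the 106 genes, 76 are protein-coding, 13 are long non-coding RNAs (lncRNAs), 10 are antisense RNAs, 6 are pseudogenes and 1 is a snoRNA, by the biotypes of the RefSeq gene table. The 5 genes left out are RpS3A at 2983.81 TPM (a level per transcript length and library depth), ATPsynbeta at 987.13 TPM, ND-49 at 123.98 TPM, mir-9385 at 0.59 TPM and mir-954 at 0 TPM.

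The data are 1 mRNA library from total RNA of adult flies, extracted with Trizol. The labels give neither a genotype nor a treatment, and neither the labels nor the study's methods give the sex, strain, age or number of flies, and those methods describe a small RNA library only. There is no replicate and no second condition, so no difference between conditions can be tested, and each value below describes this library. Deposited counts summed to 26179479. Intervals given with counts and TPM are exact Poisson intervals at 95%, and those of shares are exact binomial ones. Both cover counting error only. Because whole adults hold many tissues, fewer cells of a type and less RNA per cell cannot be told apart.

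The label of the library was checked against marker genes. All 5 genes of adult females were present, from 7.64 TPM for the eggshell gene Cp36 to 913.49 TPM for the yolk protein gene Yp1, and all 5 of adult males, from 212.70 to 417.71 TPM. The rhodopsin gene ninaE of the adult eye stood at 1671.12 TPM. The 5 larval genes lay between 0 and 2.62 TPM and the 3 genes of the early embryo between 0.75 and 1.54 TPM.

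Chromosome 4 is the smallest chromosome of this species and is also called the dot chromosome. Much of it is packaged as heterochromatin, which in other parts of the genome is associated with silencing, yet its genes are embedded among these repeats and marks and can be transcribed. The protein Pof binds to its genes, and the methyltransferase eggless (egg) and heterochromatin protein HP1a act on its chromatin.

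All 76 protein-coding genes of chromosome 4 had counts in adult flies, as did 13006 of the 13551 elsewhere. All 76 also reached 1 TPM. Protein-coding genes of other chromosomes were filtered by the same symbols, and over the 13627 protein-coding genes left, chromosome 4 included, 86.1% reached 1 TPM. At 10 TPM or more there were 57 of the 76 (75%), against 63.8% of those 13627. At 100 TPM or more there were 12 of the 76 (15.8%), against 11.4%. The lowest protein-coding gene was Kif3C, which encodes a kinesin motor, at 1.01 TPM from 75 counts. Its interval, 0.79 to 1.27 TPM, includes values below 1 TPM. At the other end no gene of the 76 reached 250 TPM, a level that 479 of the 13551 protein-coding genes elsewhere (3.53%) reached. This rests on the symbol filter. The protein-coding genes RpS3A and ATPsynbeta of chromosome 4, which it left out, stood above that level at 2983.81 and 987.13 TPM.

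The median over the 76 protein-coding genes was 41.21 TPM, with quartiles of 10.29 and 69.09 TPM. Over the 13551 protein-coding genes of the other chromosomes left by the same symbol filter it was 21.79 TPM, with quartiles of 4.0 and 54.91 TPM. With all symbols kept the medians were 42.31 and 22.25 TPM. The medians of the large arms and the X chromosome lay close together, at 21.19 TPM for 2L, 23.16 TPM for 2R, 20.60 TPM for 3L, 22.21 TPM for 3R and 21.88 TPM for X. The lower part of the distribution differed more than the upper part. The 10th percentile was 4.08 TPM on chromosome 4 and 0.47 TPM elsewhere, whereas the 90th percentiles were 124.84 and 109.65 TPM. On the scale of log2(TPM + 1), the mean was 4.93 ± 1.74 (SD over genes, n = 76) on chromosome 4 and 4.13 ± 2.32 (SD over genes, n = 13551) elsewhere, a difference of 0.80. Genes of 1 library are not replicates, and this difference was not tested. Leaving out genes with fewer than 10 counts, none of which is a protein-coding gene of chromosome 4, brought the difference to 0.38.

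**Figure D1:**
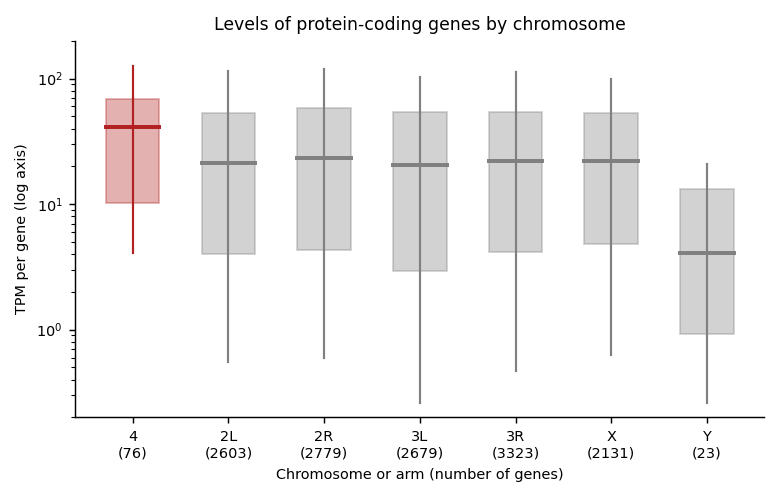
TPM per protein-coding gene on a log axis for chromosome 4 (red) and the other chromosome arms (grey), with the number of genes in parentheses. Thick lines are medians, boxes the quartiles and thin lines run from the 10th to the 90th percentile over genes. Chromosome 4 starts higher at the low end (4.08 TPM at the 10th percentile) and its median of 41.21 TPM lies above those of the large arms and X, from 20.60 to 23.16 TPM.

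Genes of chromosome 4 were also longer and had more listed transcripts. Spearman coefficients of TPM across genes, which are not independent replicates, were -0.25 with span and 0.206 with the number of transcripts on chromosome 4 (n = 76), and 0.102 and 0.282 elsewhere (n = 13551). The median span of a protein-coding gene, from the first to the last base of its listed transcripts, was 10.5 kb on chromosome 4 and 2.17 kb elsewhere. On chromosome 4 65 of the 76 (85.5%) had 2 or more transcripts, and elsewhere 49.9% had. Among genes with 2 or more transcripts, all 65 on chromosome 4 reached 1 TPM, as did 93.8% of the other 6759, and the medians were 41.29 and 31.64 TPM. Among genes that spanned 5 kb or more, all 62 on chromosome 4 and 93.2% of the other 3368 reached 1 TPM, with medians of 38.36 and 22.81 TPM. The difference on the log2 scale was 0.36 and 0.45 in these comparisons, which were chosen after the data had been seen. For the 11 protein-coding genes with a single transcript the order of the medians was opposite, at 8.47 TPM on chromosome 4 and 13.53 TPM for the other 6792. Their means of log2(TPM + 1), 3.95 and 3.53, kept the order of the full sets, and all 11 reached 1 TPM against 78.3% of the others. Among genes that spanned less than 5 kb the medians were 75.96 TPM (14 genes) and 21.45 TPM (10183 genes). As all 76 protein-coding genes of chromosome 4 reached 1 TPM, any part of them had to do so. The part of gene length and transcript number in the levels was not tested.

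The 106 genes held 250979 counts, which is 0.959% of all counts (interval 0.955 to 0.962%), and they are 0.599% of the listed genes. Levels were spread over many genes. The 10 members with the most counts held 44.6% of these counts, and the 10 with the highest TPM held 39.5% of the summed TPM. RpS3A and ATPsynbeta, both left out, would have added 0.283% of all counts.

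The most abundant gene by TPM was Arf4 (FBgn0013749, plus strand, 1124167 to 1125325), a small GTPase of the ARF family that acts in membrane traffic, at 241.68 TPM (interval 233.05 to 250.55). It ranked 635th among all genes of the table. Rad23 (FBgn0026777, plus strand, 308093 to 310822), which carries ubiquitinated proteins to the proteasome and takes part in DNA repair, followed at 230.74 TPM (224.86 to 236.74). CG11076 (FBgn0039929, minus strand, 1029711 to 1031757) stood at 217.76 TPM (211.55 to 224.11). The intervals of Arf4 and Rad23 overlap, and that of CG11076 lies just below the one of Rad23. The next gene, gw, stood at 191.77 TPM (188.82 to 194.76), and its interval touches none of these. Positions are on chromosome 4 as the deposited table gives them, and for 105 of the 106 genes they equal those of Release 6 in the RefSeq gene table.

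By counts the order was different, since long transcripts collect more reads at the same TPM. The gene with the most counts was bt (bent, FBgn0005666, 724400 to 776474), which encodes the giant muscle protein projectin, with 22065 counts (8.79% of the counts of the 106 genes). At 48.50 TPM it ranked no higher than 32nd by TPM. In bt 1 TPM corresponded to 455 counts and in Arf4 to 12.2 counts. Arf4, the first by TPM, was 30th by counts with 2958. The plot of counts against TPM shows bt apart from the rest at the top and the short genes Mpv17 and CG31997 below the others of their level.

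**Figure D2:**
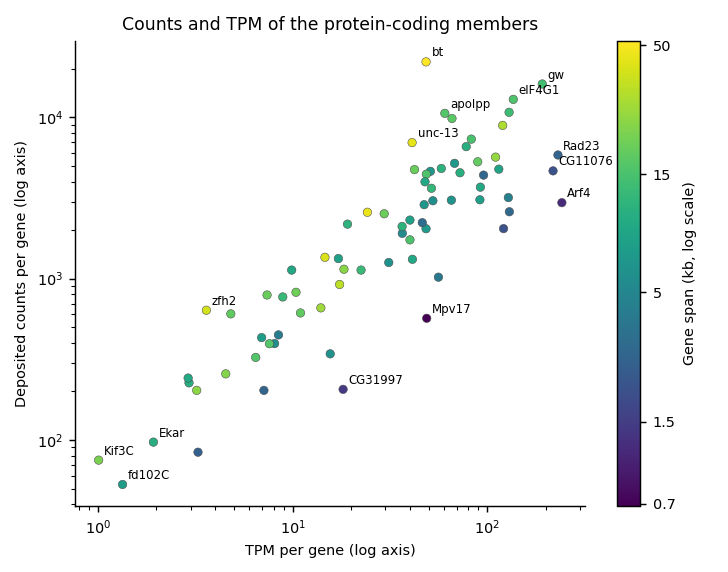
Deposited counts against TPM for 75 of the 76 protein-coding genes of chromosome 4, each a point, on log axes, coloured by gene span in kb. The long gene bt has 22065 counts at 48.50 TPM, and the short gene Arf4 has 2958 counts at 241.68 TPM.

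The list of RNA silencing and translation holds 4 genes. gw, the fruitfly GW182 protein that works with Argonaute 1 in silencing by miRNAs, had 16089 counts and was the second by counts. eIF4G1, the scaffold of the cap-binding complex in translation initiation, stood at 136.11 TPM (133.77 to 138.48) and Gyf, a GYF domain protein, at 129.49 TPM (127.05 to 131.96). 4E-T, which binds the cap-binding protein eIF4E and represses translation, was lower at 47.43 TPM. All 4 lay above the median of the 76, 4E-T by little, and 3 of them were above 100 TPM. At 100 TPM or more were 15.8% of the 76 and 11.4% of protein-coding genes over all chromosomes. This list and the others below were drawn up with earlier results of these data known.

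**Figure D3:**
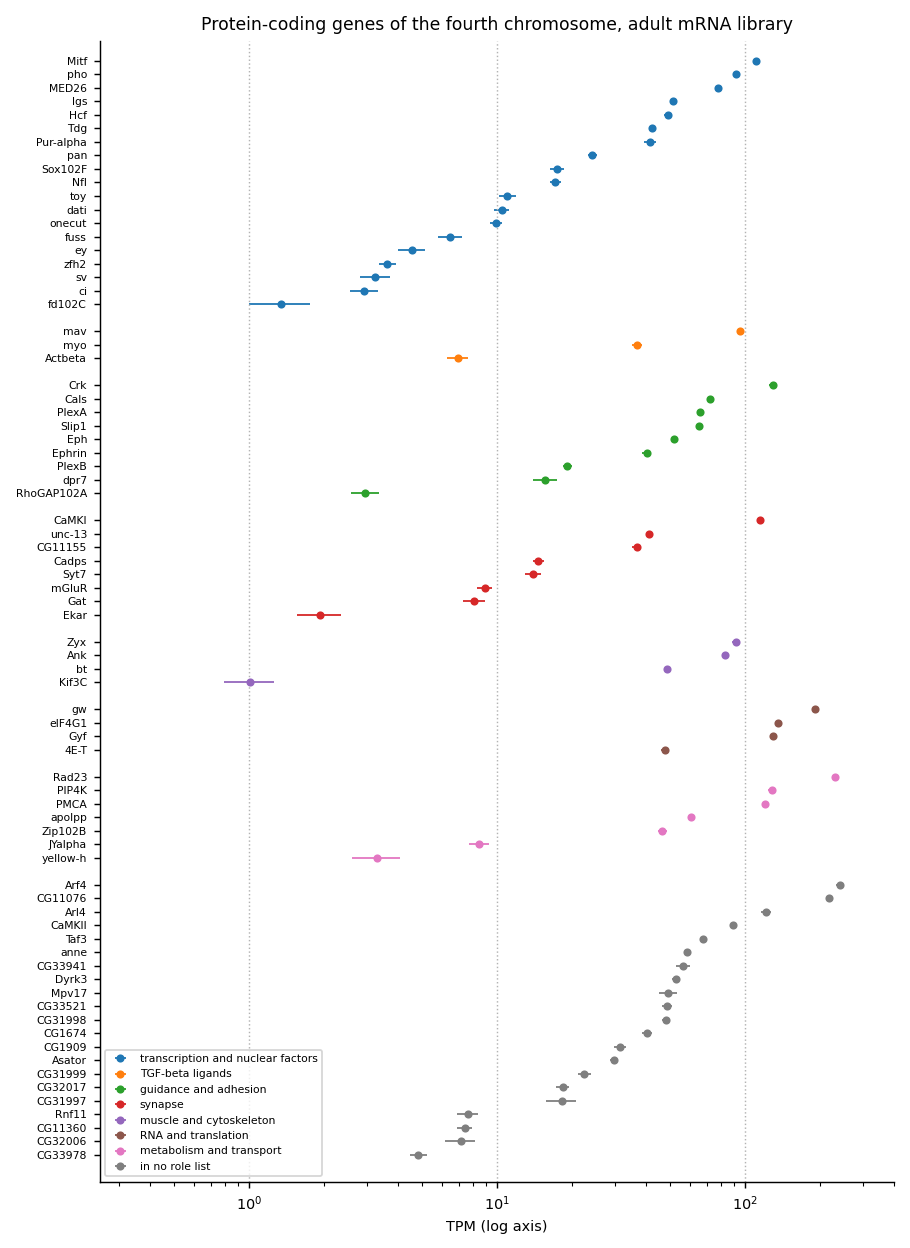
TPM on a log axis for 75 of the 76 protein-coding genes of chromosome 4, grouped by role and ordered by level within each group. Bars are exact Poisson intervals at 95% for counting error alone, and dotted lines mark 1, 10 and 100 TPM. The 4 genes of RNA and translation lie between 47.43 and 191.77 TPM, and the 19 transcription and nuclear factors between 1.34 and 110.34 TPM.

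Of 19 transcription and nuclear factors, 12 reached 10 TPM, a share close to the 63.8% of protein-coding genes over all chromosomes. Their median was 17.20 TPM. Of the 19, 1 reached 100 TPM, beside 15.8% of the 76 protein-coding genes of chromosome 4 and 11.4% over all chromosomes. Mitf, a regulator of lysosome and autophagy genes, led at 110.34 TPM, followed by pho, which binds DNA and recruits Polycomb group complexes, at 92.24 TPM. MED26, a subunit of Mediator, was at 77.99 TPM, and Hcf, a cofactor of chromatin complexes, at 48.70 TPM. Tdg, a thymine DNA glycosylase, was at 42.31 TPM, and Pur-alpha, a single-strand nucleic acid binding protein, at 41.29 TPM.

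Other genes of this list had lower values. ci, the transcription factor of Hedgehog signalling, stood at 2.91 TPM from 242 counts (interval 2.55 to 3.30 TPM). ey and toy, the Pax6 genes of eye development, stood at 4.54 TPM (4.0 to 5.13) and 10.99 TPM (10.14 to 11.90). Among the rest, sv, a Pax gene of bristle and eye cone cell development, was at 3.22 TPM, the zinc finger and homeodomain gene zfh2 at 3.61 TPM, and the forkhead gene fd102C at 1.34 TPM from 53 counts. The intervals of ci, sv and zfh2 did not separate ci from sv or sv from zfh2, whereas ey and toy were apart. The factors onecut at 9.90 TPM and dati at 10.42 TPM, Sox102F at 17.45 TPM and NfI at 17.20 TPM are also in this list. fuss, a gene of the Ski family, was at 6.47 TPM.

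Both Wnt pathway members on this chromosome were found in adults, but at different levels. lgs, the BCL9 homologue that links β-catenin to its nuclear partners, stood at 51.06 TPM (49.60 to 52.55). pan, the TCF factor that binds the DNA, stood at 24.24 TPM (23.31 to 25.19). The 3 TGF-β family ligands were also unequal, with maverick (mav) at 95.76 TPM from 4383 counts, myoglianin (myo) at 36.63 TPM and Activin-β (Actbeta) at 6.94 TPM from 431 counts. Their intervals, 92.95 to 98.64, 35.01 to 38.31 and 6.30 to 7.63 TPM, did not overlap.

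Among genes of guidance, adhesion and signalling at the cell surface, 8 of 9 reached 10 TPM, beside 75% of the 76 genes of chromosome 4 and 63.8% over all chromosomes. Crk, an SH2 and SH3 adaptor protein, led at 129.92 TPM. The semaphorin receptor PlexA stood at 65.91 TPM (64.61 to 67.23), and its relative PlexB at 19.16 TPM (18.36 to 19.98). The receptor tyrosine kinase Eph was at 51.71 TPM (50.04 to 53.42) and its ligand Ephrin at 40.09 TPM (38.47 to 41.76). Cals, the calsyntenin, was at 72.48 TPM, Slip1 at 65.45 TPM, the immunoglobulin domain gene dpr7 at 15.62 TPM and RhoGAP102A at 2.94 TPM.

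The 8 genes of the synapse that were found had a median of 14.33 TPM. Of them 5 reached 10 TPM, beside 63.8% of protein-coding genes over all chromosomes. CaMKI, a calmodulin-dependent kinase, stood at 114.65 TPM, and unc-13, which primes synaptic vesicles, at 41.13 TPM. CaMKII, a kinase of the same family with a role in learning, was outside this list at 89.36 TPM. The vesicle release genes Cadps and Syt7 stood at 14.67 TPM (13.90 to 15.47) and 13.98 TPM (12.93 to 15.09), with overlapping intervals. The metabotropic glutamate receptor gene mGluR was at 8.91 TPM and the GABA transporter gene Gat at 8.09 TPM. Of the ionotropic glutamate receptor genes, CG11155 was at 36.54 TPM (35 to 38.13) and Ekar at 1.93 TPM (1.57 to 2.35).

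In the muscle and cytoskeleton list, zyxin (Zyx) stood at 91.70 TPM, ankyrin (Ank) at 82.84 TPM and bt at 48.50 TPM, far above Kif3C. In metabolism and transport, 5 of the 7 genes found reached 10 TPM, a share close to the 75% of the 76. They were Rad23, the lipid kinase PIP4K at 128.39 TPM, the plasma membrane calcium pump PMCA at 120.04 TPM, apolpp at 60.55 TPM and the zinc transporter Zip102B at 46.41 TPM. Rad23 was placed in this list although the roles given for it above are others. apolpp (1060969 to 1077273), the precursor of the main lipoprotein of the haemolymph, was the fifth by counts with 10584. The lowest were JYalpha, a sodium pump subunit needed for sperm motility, at 8.47 TPM (7.70 to 9.29) and yellow-h at 3.27 TPM (2.61 to 4.05).

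The other 22 protein-coding genes were in no list. Besides Arf4, CG11076 and CaMKII they included Arl4, another ARF family GTPase, at 121.29 TPM and Taf3, a subunit of the general transcription factor TFIID, at 67.96 TPM. The kinase gene Dyrk3 was at 52.59 TPM and Mpv17 at 48.87 TPM from 568 counts. The lowest of the 22 was CG33978 at 4.82 TPM.

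A list of chromatin regulators, drawn up for chromosome 4, gave 9 genes, all on other chromosomes. Whether each acts on chromosome 4 was not examined here. All 9 lay above 10 TPM, beside 63.8% of protein-coding genes over all chromosomes. The gene of HP1a stood at 316.67 TPM and Pof at 205.23 TPM. The histone methyltransferase gene egg was at 39.57 TPM and wde, its cofactor, at 42.75 TPM. Other genes of this list were Su(var)3-7 at 86.62 TPM, HP1b at 66.78 TPM, G9a at 60.16 TPM, HP1c at 45.33 TPM and Su(var)3-9, the methyltransferase of pericentric heterochromatin, at 10.77 TPM. Pof was thus near the level of Rad23 and CG11076, and HP1a was above every gene of chromosome 4 kept here.

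Levels varied along the chromosome. In the order of their starts, the first 19 protein-coding genes, from JYalpha to NfI, had a median of 19.16 TPM, and 13 of them reached 10 TPM. The next 19, from Syt7 to Eph, had a median of 42.31 TPM, and 16 of them reached 10 TPM. For the 19 from mav to toy the median was 36.63 TPM, and 12 reached 10 TPM. The last 19, from PlexA to Cadps, had the highest median, 60.55 TPM, and 16 of them reached 10 TPM. Over all 76 the share at 10 TPM or more was 75%. Neither the medians nor these counts rose steadily along the chromosome. Each of these sets of 19 spanned from below 4 TPM to above 120 TPM. Neighbours could differ widely, as did Ekar at 1.93 TPM beside gw, and Kif3C at 1.01 TPM beside pho. The median over the 43 genes on the minus strand was 47.43 TPM and over the 33 on the plus strand 36.54 TPM, with quartiles of 17.33 to 86.10 and 7.61 to 56.15 TPM.

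**Figure D4:**
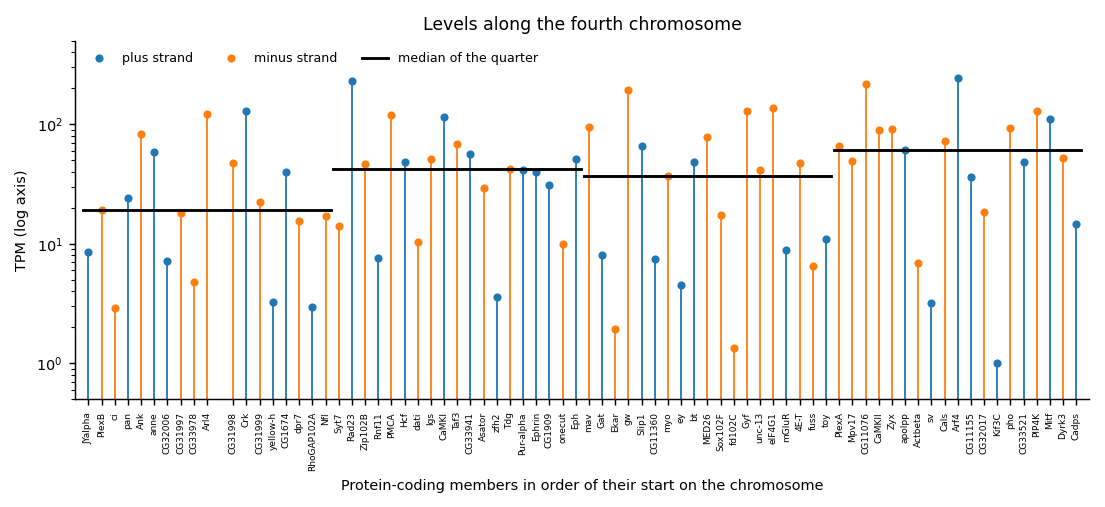
TPM on a log axis for 75 of the 76 protein-coding genes in the order of their starts along chromosome 4, coloured by strand. Black lines are the medians of each 19 genes, at 19.16, 42.31, 36.63 and 60.55 TPM, and each set of 19 holds genes below 4 TPM and above 120 TPM.

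Many of the genes were represented by several transcripts. The 76 protein-coding genes have 287 listed transcripts, of which 267 had counts and 252 had 10 counts or more. The median was 3 transcripts per gene, the most were 12, and 49 of the 65 genes with several transcripts had counts for each of them. The shares of transcripts with counts were not computed for other chromosomes, so whether these are usual was not examined. The division of reads among overlapping transcripts was estimated upstream, so these shares are less certain than the sums per gene.

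Abundant genes differed in how far a single transcript dominated. Transcript FBtr0333699 held 95.8% of the TPM of Arf4, FBtr0089221 held 96.8% of CG11076 and FBtr0307327 held 95.4% of Mitf. For MED26 the second transcript had 1 count of 6582. CaMKII was the most divided, with counts for 11 of 12 transcripts and no more than 18.6% of its TPM in any of them. sv was similar at a low level, with its leading transcript at 23.0% of 3.22 TPM. In PMCA all 11 transcripts had counts, and the leading one, FBtr0300558, held 56.4%. In CaMKI the first 3 transcripts stood at 46.16, 35.12 and 28.08 TPM, and in bt the first 2 held 57.6% and 34.3%.

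The leading transcript held a median of 65.7% of a gene's TPM over the 65 genes with several transcripts (quartiles 54.0 and 86.3%). Over 6682 such genes elsewhere it held 89.1%. For genes with exactly 2 transcripts the medians were 94.9% (15 genes) and 96.8% (3501 genes). For 5 or more transcripts they were 53.7% (20 genes) and 57.2% (1116 genes). At 3 transcripts they were 77.3% and 85.2%, and at 4 they were 65.0% and 74.8%. In each of these groups the median on chromosome 4 was the lower. The part of the number of listed transcripts in the gap over all genes was not tested. By the leading transcript alone, the medians of the protein-coding genes were 22.35 TPM on chromosome 4 and 18.93 TPM elsewhere.

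**Figure D5:**
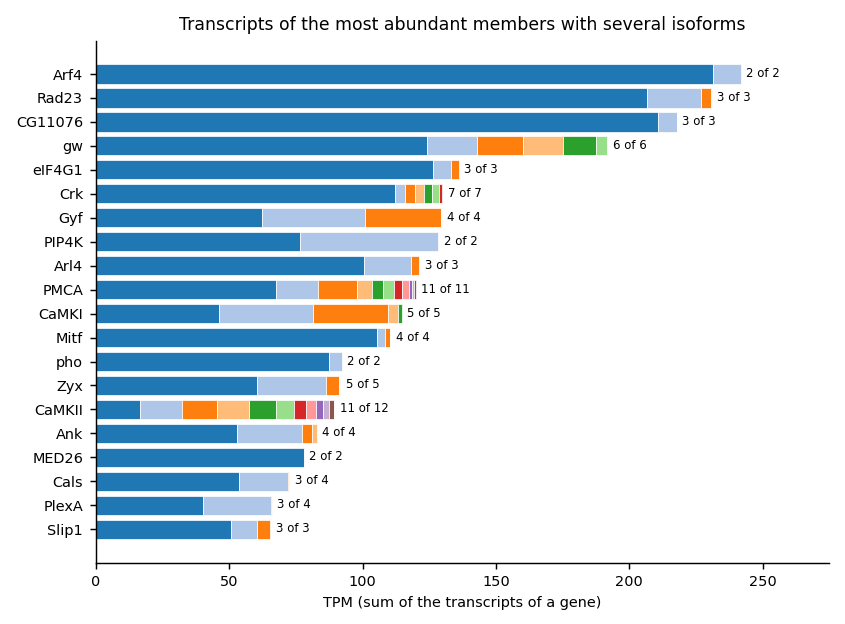
TPM of each listed transcript, stacked from the highest to the lowest, for the 20 most abundant genes of chromosome 4 with several transcripts. Figures at the bar ends give how many of the listed transcripts had counts. Arf4 and CG11076 are nearly all 1 transcript, while CaMKII is divided among 11.

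Of the 30 genes that are not protein-coding, 19 reached 1 TPM and 5 reached 10 TPM. Over all 106 genes, 103 had counts (97.2%, against 90.7% of all genes in the table) and 95 reached 1 TPM (89.6%, against 75.9%). The 3 without counts were the pseudogene CR33797 and the lncRNAs CR44440 and CR45123. A count of 0 allows up to 3 counts as a one-sided limit. Of the antisense RNAs, 7 of 10 reached 1 TPM, beside 64.4% of the 480 on other chromosomes, and 8 of 13 lncRNAs did, beside 41.2% of 1911. No such share is given here for pseudogenes, or for any of these biotypes at 10 TPM. Whether those counts are usual was therefore not examined.

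The highest of these genes were asRNA:CR45126 at 20.50 TPM, lncRNA:CR43437 at 16.60 TPM and the pseudogene CR43361 at 16.28 TPM. asRNA:CR45126 (520 counts) shares 1527 bases with Taf3 on the opposite strand. asRNA:CR44029, with the most counts of the antisense RNAs (522), and CR43361 both lie opposite to unc-13, which had 6970 counts. asRNA:CR44027 at 13.93 TPM (11.66 to 16.52) stood above its partner dati at 10.42 TPM (9.72 to 11.16), with which it shares 210 bases. asRNA:CR43957 at 2.86 TPM (2.14 to 3.75) was indistinguishable from its partner ci. The other antisense RNAs lay below their partners, at 0.292% to 71.9% of the partner's TPM. The pseudogenes near the start of the listed sequence (CR32011, CR32010 and CR32009) stood at 7.63, 5.43 and 6.99 TPM. The lncRNA sphinx, which lies opposite to fuss, had 14 counts (1.54 TPM, interval 0.84 to 2.58).

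In all, 46 of the 106 genes overlap another gene, 44 of them a gene on the opposite strand, and 28 of the 76 protein-coding genes do so. The share of protein-coding genes that overlap another gene was 36.8% on chromosome 4 and 46.9% elsewhere. No source used here gives whether the counting used strand. If it did not, the reads of a gene and of its antisense partner could not be told apart, and the values of overlapping genes are uncertain to that extent. Over the protein-coding genes without any overlap, the medians were 46.92 TPM on chromosome 4 and 20.09 TPM elsewhere, and the log2 difference was 1.24.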

How the data were processed

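Total RNA of adult flies gave 1 mRNA library. Its deposited table lists 34736 transcripts of 17698 genes. The authors' whole-number counts per transcript were taken as rounded expected counts, since overlapping isoforms carried different values. TPM and FPKM were also made by the authors, and deposited FPKM was proportional to TPM (ratio 0.627 to 0.631 in genes above 5 TPM). The submitters' processing notes name CASAVA and HISAT2. No source used here gives the counting tool, annotation or genome build.

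Counts and TPM were summed over the transcripts of a gene in Python 3.11.15 with pandas 2.3.3, and intervals were computed with SciPy 1.17.1. Symbols were found for 17560 genes (99.2%), and biotypes were taken from RefSeq. Protein-coding genes of other chromosomes were filtered by the same symbols, and other biotypes were not. The pseudocount was 1 TPM. With 1 library and no replicate, no test was run. The gene sums, the overlap search and the difference of means were tested on simulated data. Members and lists were chosen with earlier results of these data known. Genes were named by a rule: the 20 highest by TPM, those in 7 role lists, the highest by counts per biotype and the lowest protein-coding ones, and others, such as Dyrk3 and Mpv17, were picked after their values had been seen. A search of promoter motifs was planned and not run. The small RNA library was not used here. The values of 1 protein-coding gene are not reported here, and it is not drawn by itself, though it counts in the totals and medians.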

Additional observations from a re-analysis of the deposited data

How the results depend on the processing

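The share of counts from genes of chromosome 4 was 1.25% with the symbols kept that had been left out, 0.984% without the mitochondrial genome in the total, and 0.678% without overlapping genes. The share of genes at 1 TPM or more was 100% for protein-coding genes alone. It must then be 100% for any part of them. The sets with 2 or more transcripts or with 5 kb or more, chosen after seeing the data, therefore add nothing here. The log2 difference between chromosome 4 and other protein-coding genes kept its sign in every alternative run. It was 0.379 without genes under 10 counts, 1.24 without overlapping genes, 0.471 by the most abundant transcript, 0.515 with a pseudocount of 5 TPM, 0.357 for genes with 2 or more transcripts and 0.451 for genes of 5 kb or more. With a pseudocount of 0.1 TPM it was 1.10. The median on chromosome 4 was 22.35 TPM by the most abundant transcript. In FPKM, another scale, the medians were 25.9 and 13.7. Of 59 named genes, 25 fell by more than 1.5 times with the most abundant transcript alone. Without a replicate, the spread between flies or libraries is unknown, and neighbouring levels may change places in another library.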
